A study of Homo sapiens with 20 samples.

Results

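The cytosolic ribosomal protein genes were examined in RNA-seq data of the human neuroblastoma line NGP after treatment with nutlin-3 or with vehicle. The genes were chosen by name, as all protein_coding genes of the GENCODE annotation called RPL or RPS with a number, together with RPSA, RPLP0, RPLP1 and RPLP2, and without the RPS6K kinases and the RPS4Y genes. This gave 84 genes among the 27697 mRNA and lncRNA genes tested. Of these, 46 encode proteins of the large subunit, 31 encode proteins of the small subunit, and 7 are paralogs named after one of the others (RPL3L, RPL7L1, RPL10L, RPL22L1, RPL26L1, RPL39L and RPS27L). The nutlin group holds 10 samples that received the racemic compound at 8 µM and the vehicle group holds 10 samples that received ethanol. Both groups are of the same line, for which the labels name no engineered allele, and neither the labels nor the methods give the duration of treatment. The methods call the samples biological replicates and the labels say nothing of separate cultures, so that p-values measure the spread between these samples of 1 line.

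The cytosolic ribosome translates nearly all cellular mRNAs. Its proteins are made from some of the most abundant mRNAs of a growing cell, and most of these mRNAs begin with a C followed by a run of pyrimidines, the terminal oligopyrimidine (TOP) motif, through which their translation is controlled together. Nutlin-3 blocks the binding of MDM2 to the tumour suppressor p53, and several free ribosomal proteins, among them RPL5, RPL11 and RPL23, are known to bind MDM2. RPS27L, a close paralog of RPS27, is known as a gene that p53 activates.

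The start of transcription is shown for 4 paralogs whose level changed and for the genes RPS27, RPL22 and RPL26, followed by members with a large rise. Members differed in whether the motif was matched at their annotated start. Each window holds 15 bases before and 15 bases from the start of the RefSeq transcript in GRCh38.p14, read in the direction of transcription. Where a gene had several such starts, one that matched the motif was shown if there was any, and otherwise the first listed. RPS19, for example, has 2 starts, of which 1 matched. Capitals mark an unbroken run of pyrimidines that begins with C at the start site itself and is at least 5 bases long. Sequences without capitals have no such run.
RPS27L, chr15:63157463-63157492, minus strand: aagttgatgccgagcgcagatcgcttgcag
RPS27, chr1:153990747-153990776, plus strand: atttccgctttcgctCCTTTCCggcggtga
RPL22L1, chr3:170870181-170870210, minus strand: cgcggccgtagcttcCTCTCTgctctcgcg
RPL22, chr1:6199581-6199610, minus strand: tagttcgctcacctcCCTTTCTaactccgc
RPL26L1, chr5:172958714-172958743, plus strand: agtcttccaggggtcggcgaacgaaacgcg
RPL26, chr17:8383179-8383208, minus strand: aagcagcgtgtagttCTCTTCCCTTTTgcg
RPL7L1, chr6:42879601-42879630, plus strand: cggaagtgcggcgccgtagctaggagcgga
RPS19, chr19:41860240-41860269, plus strand: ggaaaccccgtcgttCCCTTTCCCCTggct
RPL28, chr19:55385917-55385946, plus strand: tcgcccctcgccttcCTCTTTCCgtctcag
RPL3, chr22:39319609-39319638, minus strand: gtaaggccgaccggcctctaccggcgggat
Of the 84 members, 67 were in the table of RefSeq starts. A TOP start, here a C followed by 4 bases that are each C or T, was found in 46 of the 62 matched subunit genes (74.2%) and in 1 of the 5 matched paralogs (20%), RPL22L1. One was also found in 988 (6.24%) of all 15843 protein_coding genes so matched. A gene with several starts was counted when any of them matched. These are matches in a RefSeq start site, and the starts used in NGP cells were not measured.

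MDM2, the gene that p53 is known to induce and the check of the treatment, had 199 to 290 CPM (counts scaled to library size) in the vehicle samples and 4797 to 6005 CPM in the nutlin samples. The depth of a sample was 14455477 to 19532971 assigned read pairs. All 8 markers of adrenergic neuroblastoma cells had a mean of at least 1 TPM, a level scaled by transcript length and library size, from 56.9 to 1412 TPM. Of 6 mesenchymal or immune markers 3 had a mean of at least 1 TPM and the highest, COL1A1, reached 5.28 TPM. COL1A1 was higher in the nutlin samples with a log2 fold change (LFC) of 1.98 (adjusted p = 4.36e-20, edgeR quasi-likelihood test), and the part of other cell types in the ribosomal protein results was not tested.

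Most cytosolic ribosomal protein genes were higher after nutlin treatment, by modest amounts. All 84 members passed the filter of at least 1 count in each condition. At 5% FDR (edgeR quasi-likelihood test, adjusted over all genes tested) 59 rose, 3 fell and 22 were not called, which is 73.8% called against 58.8% of all genes tested. By direction, 70.2% of the members rose against 32.3% of all genes, and 3.57% fell against 26.5%. The median LFC of the members was 0.34, with quartiles of 0.14 and 0.49. Over all genes tested, lncRNAs included, the median was 0.19, and over the mRNAs among them it was -0.006. Members are abundant and short, and genes of that kind moved the other way. Among the other 2100 mRNAs with a mean of at least 100 CPM, 89.6% were called, as 22.8% rose and 66.9% fell, and the median LFC was -0.32. Among the 120 of these with a canonical transcript of at most 1000 nt, 88.3% were called, as 5.83% rose and 82.5% fell, and the median LFC was -0.52. All of these changes are relative to the normalized library size (TMM factors) and are not absolute amounts of RNA. The samples are bulk RNA, in which fewer cells of a kind and less RNA per cell cannot be told apart.

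**Figure D1:**
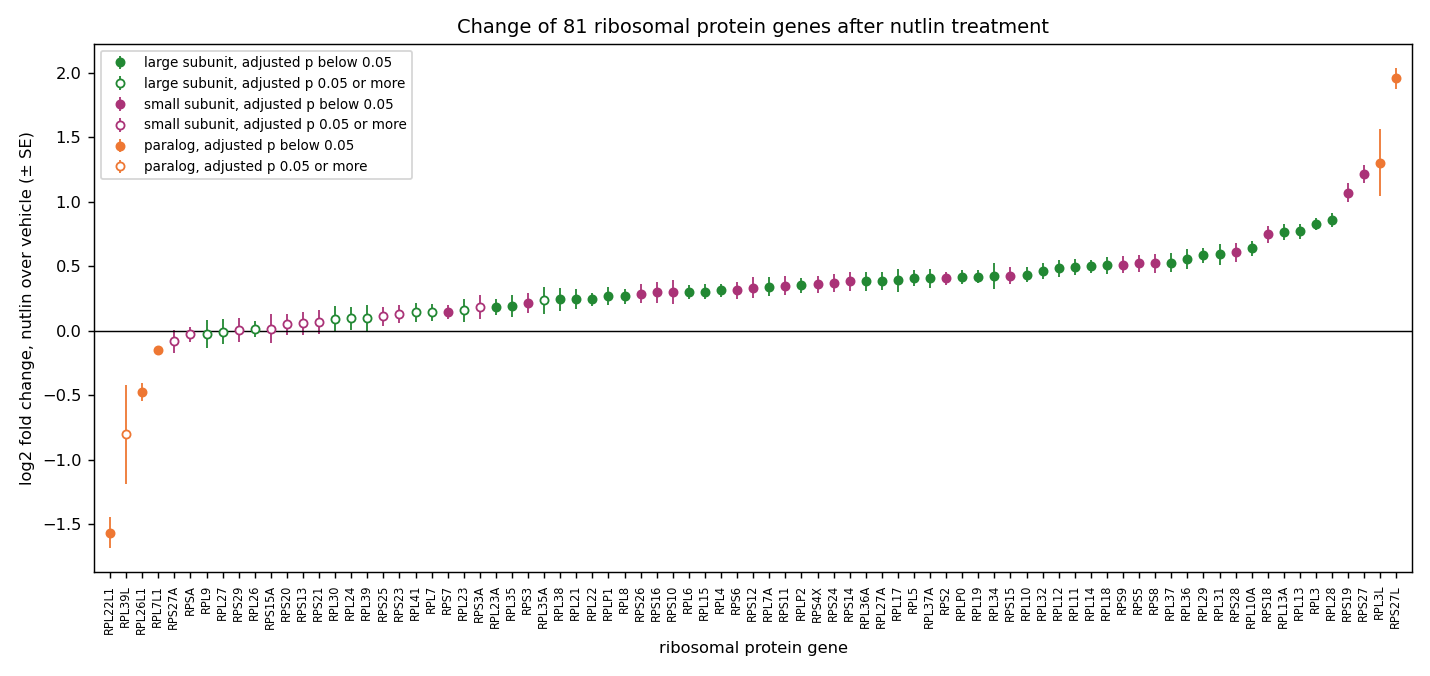
LFC of nutlin over vehicle with its standard error (vertical axis, log2) for 81 of the 84 members (horizontal axis, ordered by LFC), fitted by edgeR over 10 samples per group; RPL10L, with 1 count in 1 sample of each group, is among those left out. Filled points passed 5% FDR. Large-subunit genes (green) and small-subunit genes (purple) lie between -0.08 and 1.22, while the paralogs (orange) spread from -1.57 to 1.95.

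In 18 members every nutlin sample was above every vehicle sample, in 2 members every nutlin sample was below, and in the other 64 the groups overlapped. Over all genes tested these patterns took 12.2% and 16.6% of genes, over the other 2100 abundant mRNAs 16% and 54.5%, and over the 120 short ones 4.17% and 50.8%. The subunit genes and the paralogs behaved differently. None of the 77 subunit genes fell, 57 rose and 20 were not called. Of the 7 paralogs 2 rose, 3 fell and 2 were not called.

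RPS27L rose the most. It encodes a small-subunit protein that differs little from RPS27. Its level was 47.4 CPM in the lowest, 52.9 in the median and 77.3 in the highest vehicle sample, against 198, 224 and 291 CPM in the nutlin samples. Every nutlin sample was above every vehicle sample. The fold change was 3.88 (LFC 1.95, SE 0.08, adjusted p = 6.32e-19, edgeR). Per length its mean was 258 TPM over all samples, with 111 TPM in vehicle and 405 TPM in nutlin samples. RPL22 had 388 TPM over all samples, the lowest of the 69 subunit genes whose canonical transcript was among those quantified. With 382 TPM in vehicle and 393 TPM in nutlin samples, RPL22 was above RPS27L in the vehicle mean only.

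The rise of RPS27L was seen in each of its main coding isoforms. The coding isoform of 528 nt went from a median of 25.1 to 96.9 CPM, that of 970 nt from 18.3 to 70.2 CPM and that of 6434 nt from 6.57 to 25.4 CPM. Their ratios of group means were 3.50, 3.68 and 3.93. Isoforms of low level had larger ratios. A retained-intron isoform of 2944 nt had a ratio of 9.70, from a median of 1.01 to 9.55 CPM. Coding isoforms of 923 nt and 681 nt had ratios of 21.0, from 0.261 to 6.59 CPM, and 5.94, from 1.19 to 6.90 CPM. In these 6 isoforms the groups did not overlap. The isoforms share most of their sequence, so that their split is an estimate by kallisto.

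RPS27 was listed at 11.4, 12.3 and 17.4 CPM (lowest, median and highest) in the vehicle samples and at 27.6, 30.2 and 37.3 CPM in the nutlin samples. The groups did not overlap and the fold change was 2.33 (LFC 1.22, SE 0.07, adjusted p = 1.55e-15, edgeR). This value does not describe the RPS27 mRNA. The canonical transcript of RPS27 was not among the transcripts that could be matched, and the 3 that could were all retained-intron isoforms. The most abundant of them, of 573 nt, went from a median of 8.59 to 22.8 CPM. RPS27 thus had a mean of 56.0 TPM, far below most subunit genes.

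The ratio of RPS27L to RPS27 counts within each sample does not depend on library size. Its log2 was 2.13 ± 0.27 (SD, n = 10) with vehicle and 2.87 ± 0.08 (SD, n = 10) with nutlin. The difference was 0.74, a 1.67-fold change (two-sided permutation test with 100000 resamples, p = 6e-05), and all 10 nutlin samples were above all vehicle samples. On the TPM scale the difference was 0.66 (p = 0.0001, same permutation test), with 8 of 10 nutlin samples above all vehicle samples. As RPS27 was counted on retained-intron isoforms only, this ratio compares RPS27L with those isoforms and not with RPS27 mRNA.

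RPL22L1 fell the most among the members. It is the paralog of RPL22, a large-subunit protein that also binds RNA outside the ribosome. The vehicle samples ranged from 177 to 374 CPM with a median of 272, and the nutlin samples from 75.6 to 147 CPM with a median of 84.1. All nutlin samples were below all vehicle samples, a 2.96-fold decrease (LFC -1.57, SE 0.12, adjusted p = 1.35e-12, edgeR). RPL22 itself ranged from 304 to 417 CPM (median 357) in vehicle and from 390 to 519 CPM (median 415) in nutlin samples. Its LFC was 0.24 (adjusted p = 1.86e-04), and 6 nutlin samples lay within the vehicle range. With an offset for effective length its LFC was 0.04 (adjusted p = 0.679), so that the call for RPL22 was lost.

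RPL26L1, which encodes a protein nearly the same as RPL26, went from 34.8, 38.4 and 54.9 CPM in vehicle (lowest, median and highest) to 25.7, 28.8 and 34.1 CPM in nutlin samples. The groups did not overlap (LFC -0.47, SE 0.07, adjusted p = 7.12e-07). RPL26 was listed at a median of 19.6 CPM in vehicle and 20.2 CPM in nutlin samples, with an LFC of 0.02 (adjusted p = 0.846). RPL26 is another gene whose canonical transcript was not among those matched, and its mean of 40.1 TPM is therefore no measure of its mRNA.

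RPL7L1, a relative of RPL7, went from 191, 205 and 211 CPM in vehicle to 171, 180 and 196 CPM in nutlin samples. The decrease was small (LFC -0.15, SE 0.03, adjusted p = 1.82e-04), and 3 nutlin samples lay within the vehicle range. RPL7 had medians of 1030 CPM in vehicle and 1122 CPM in nutlin samples and an LFC of 0.14 (adjusted p = 0.0725), which passed 5% FDR under 9 of 13 alternatives.

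The remaining paralogs were near the limit of detection. RPL3L, known from striated muscle, had 0.184, 0.382 and 0.997 CPM in vehicle and 0.601, 1.11 and 1.88 CPM in nutlin samples, and rose with an LFC of 1.30 (SE 0.26, adjusted p = 6.88e-05), although 4 nutlin samples lay within the vehicle range. RPL39L, known from male germ cells, had medians of 0.624 and 0.318 CPM and an LFC of -0.80 (SE 0.38, adjusted p = 0.0739). RPL39, after which it is named, had an LFC of 0.10 (adjusted p = 0.406). RPL10L, known from testis, had 1 count in 1 vehicle and in 1 nutlin sample, which allows no fold change. RPL10 rose with an LFC of 0.44 (adjusted p = 3.86e-07).

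**Figure D2:**
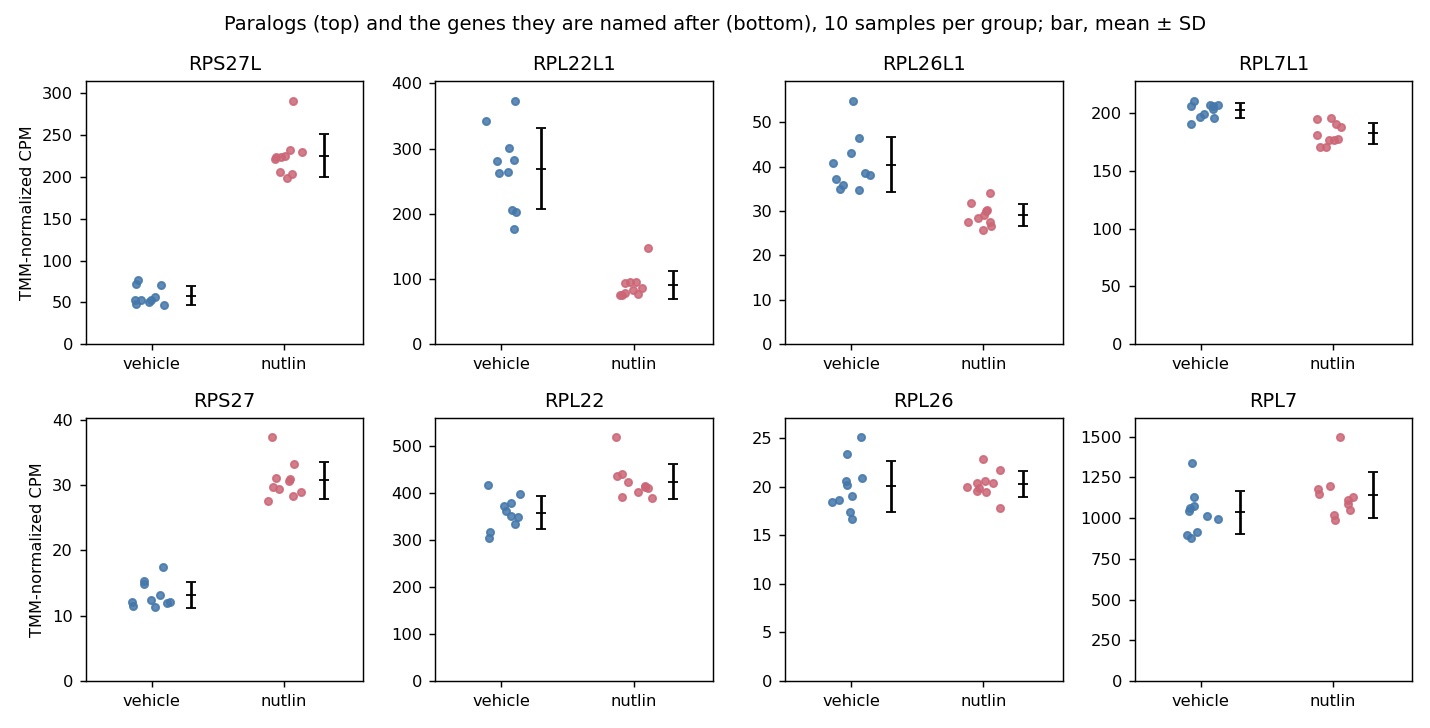
Level in each sample (vertical axis, TMM-normalized CPM from 0) of the 4 paralogs with a mean of at least 1 CPM that changed (top) and of the gene each is named after (bottom). Points are samples, bars the mean ± SD of 10. RPS27L separates the groups upward and RPL22L1 and RPL26L1 downward, while RPL22 and RPL7 overlap; RPS27 and RPL26 were counted without their canonical transcripts.

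Among the 46 large-subunit genes 36 rose, none fell and 10 were not called, with a median LFC of 0.38. RPL28 had the highest LFC. It went from 458, 539 and 677 CPM in vehicle to 889, 971 and 1105 CPM in nutlin samples, without overlap (1.81-fold, LFC 0.86, SE 0.06, adjusted p = 2.81e-14). RPL3, which lies at the peptidyl transferase centre where peptide bonds form, went from 1354, 1480 and 1774 CPM to 2417, 2620 and 3103 CPM, also without overlap (1.78-fold, LFC 0.83, SE 0.05, adjusted p = 1.52e-15). At the other end, the large-subunit genes that were not called were RPL7, RPL9, RPL23, RPL24, RPL26, RPL27, RPL30, RPL35A, RPL39 and RPL41. Their LFC lay between -0.03 and 0.24.

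The mRNAs of the stalk proteins, to which translation factors bind, were higher in the nutlin samples. RPLP0, the base of the stalk, went from 2246, 2550 and 3076 CPM to 3011, 3306 and 4012 CPM (LFC 0.42, SE 0.05, adjusted p = 5.75e-08), with 1 nutlin sample within the vehicle range. RPLP1 and RPLP2, which form dimers on it, had LFCs of 0.27 (adjusted p = 0.00181) and 0.35 (adjusted p = 4.85e-06). For these, 9 and 5 nutlin samples lay within the vehicle range.

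Among the members known to bind MDM2, RPL11 and RPL5 rose. RPL11 went from 1232, 1391 and 1783 CPM in vehicle to 1787, 1929 and 2531 CPM in nutlin samples, without overlap (LFC 0.49, SE 0.06, adjusted p = 5.41e-08). RPL5 went from 774, 922 and 1161 CPM to 1070, 1197 and 1517 CPM (LFC 0.41, SE 0.06, adjusted p = 1.53e-06), with 3 nutlin samples within the vehicle range. RPL23 had medians of 1281 and 1362 CPM, an LFC of 0.16 (adjusted p = 0.145) and 9 nutlin samples within the vehicle range. It passed 5% FDR under 3 of 13 alternatives.

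Among the 31 small-subunit genes 21 rose, none fell and 10 were not called, with a median LFC of 0.31. RPS19, a protein needed for maturation of the small subunit and the gene most often mutated in Diamond-Blackfan anaemia, rose the most apart from RPS27. It went from 1408, 1666 and 2264 CPM in vehicle to 3167, 3373 and 4573 CPM in nutlin samples, without overlap (2.10-fold, LFC 1.07, SE 0.07, adjusted p = 1.31e-13). RPSA, a small-subunit protein also known as the laminin receptor, was not called. It had medians of 2010 CPM in vehicle and 1920 CPM in nutlin samples and an LFC of -0.03 (adjusted p = 0.722), which was above 0 under 7 of 13 alternatives, among them DESeq2 size factors. The other small-subunit genes that were not called were RPS3A, RPS13, RPS15A, RPS20, RPS21, RPS23, RPS25, RPS27A and RPS29, with LFCs between -0.08 and 0.18.

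Levels between members were compared per length. In the 69 subunit genes whose canonical transcript was among those matched, the mean over all samples ran from 388 TPM (RPL22) to 8234 TPM (RPS19), a 21.2-fold range, with a median of 2477 TPM. A mean of at least 1000 TPM was reached by 66 of them. RPS24, a small-subunit protein, had 6502 TPM, and RPL41, the smallest protein of the ribosome, had 6382 TPM. RPS24 rose with an LFC of 0.37 (adjusted p = 3.78e-05), whereas RPL41 had an LFC of 0.14 (adjusted p = 0.109). RPL41 passed 5% FDR under 7 of 13 alternatives. The lowest levels were those of RPL10L with 0.0107 TPM, RPL3L with 0.559 TPM and RPL39L with 0.873 TPM.

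The canonical transcript was not among the matched transcripts for 8 members, among them RPL11, RPL26, RPL35A, RPS7, RPS10, RPS26 and RPS27. Of the 8 members 5 were listed below 100 TPM, among them RPS10 with 20.8, RPS7 with 35.3, RPL26 with 40.1 and RPS27 with 56.0 TPM. Transcripts that could not be matched took 3.28% ± 0.04 (SD, n = 10) of all counts in vehicle and 4.21% ± 0.07 (SD, n = 10) in nutlin samples, and were not assigned to any gene here. Without the 8 members 53 rose, 3 fell and 20 were not called, with a median LFC of 0.35.

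The ribosomal protein genes together took a larger share of the library after treatment. Members held 7.56% ± 0.80 (SD, n = 10) of mRNA and lncRNA counts in the vehicle samples, from 6.70% to 9.18%. In the nutlin samples they held 11.3% ± 1.05 (SD, n = 10), from 10.5% to 14.03%, without overlap. By summed TPM, which corrects for their short length, the shares were 17.0% ± 1.5 and 21.8% ± 1.81 (SD, n = 10 each), and the groups ranged from 15.4% to 20.2% and from 20.4% to 26.6%. The highest shares of counts were those of nutlin replicate 6 and vehicle replicate 10.

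**Figure D3:**
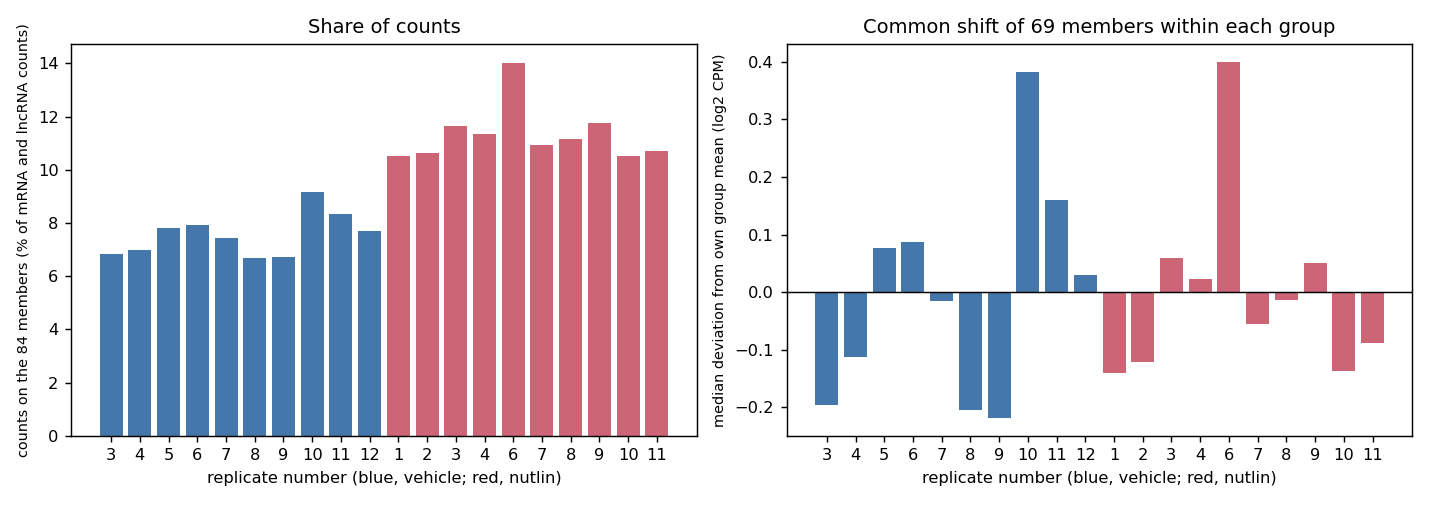
Left, counts on the 84 members as a percentage of mRNA and lncRNA counts in each sample; right, median over 69 subunit genes of the deviation from the own group's mean log2 CPM. Bars are single samples, blue for vehicle and red for nutlin. All nutlin samples (10.5% or more) lie above all vehicle samples (9.18% or less), and nutlin replicate 6 and vehicle replicate 10 stand apart within their groups with deviations of 0.40 and 0.38.

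Within each group the members moved as a block from sample to sample. The median deviation of the 69 subunit genes from their own group means had an SD of 0.19 on the log2 scale across vehicle samples and 0.16 across nutlin samples, which is close to the median SD of a single member (0.20 and 0.16). In vehicle replicates 8 and 9 and nutlin replicates 1, 2 and 10 none of the 69 genes was above its group mean, and in vehicle replicates 6, 10 and 11 and nutlin replicates 6 and 9 all 69 were. The members are therefore not independent of each other in any count given here. The same libraries were also high or low for other short abundant mRNAs. The median deviation of the 120 other mRNAs of at most 1000 nt ran from -0.19 to 0.33 in vehicle and from -0.10 to 0.26 in nutlin samples. Across the 10 vehicle samples it followed that of the members with Pearson's r of 0.996 and Spearman's rho of 0.98, and across the 10 nutlin samples with 0.983 and 0.93. Without the 2 samples farthest from the median, r was 0.990 and 0.911. Between the groups these short mRNAs and the members went in opposite directions, as given above. The difference between transcript length and effective length, which reflects the fragment length, ran from 153 to 169 bases in vehicle and from 152 to 163 bases in nutlin samples. The part of these library differences in single LFCs was not tested beyond the effective length offset and the removal of nutlin replicate 6 or vehicle replicate 10.

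Leaving out nutlin replicate 6 gave 61 called members and a median LFC of 0.31, and leaving out vehicle replicate 10 gave 70 called members and a median LFC of 0.41.

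Properties that did not enter the choice of genes were set beside the changes. All 12 subunit genes on chromosome 19 rose, with a median LFC of 0.54, and in 8 of them the groups did not overlap. Of the 65 on other chromosomes 45 rose, with a median LFC of 0.30, and 9 did not overlap. Over all genes tested 32.3% rose, and in 12.2% every nutlin sample was above every vehicle sample. No other chromosome was set apart. The other genes of chromosome 19 were not counted, so that a trait of the chromosome and one of the members cannot be told apart. The chromosome 19 genes also had a higher GC content of the canonical transcript (median 57.0% against 46.8%), and these properties were not separated here. Across the 69 subunit genes with their canonical transcript, Spearman's rho of the LFC was 0.44 with GC content, 0.28 with transcript length and 0.28 with mean CPM. Across the 2100 other abundant mRNAs it was 0.19, 0.27 and -0.12. These are descriptions across genes that share libraries and are not independent.

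Other features showed no such difference in counts. Among the 28 subunit genes with a small nucleolar RNA in an intron 21 rose with a median LFC of 0.35, and among the 49 without one 36 rose with a median LFC of 0.31. With a TOP start at a RefSeq start 34 of 46 rose (median LFC 0.35), and of the 16 matched genes without one 13 rose (median LFC 0.34). RPL3, printed above without capitals, is one of these 16. As this split rests on the exact annotated base, it cannot tell mRNAs with the motif from those without it. A p53 motif, a pair of adjacent half-sites without a spacer, was searched within 2000 bases of the gene start on either strand. Up to 2 mismatches to the consensus were allowed in all, but none in the central C, A or T, A or T, G of each half-site. It was found in 1 of 84 members (1.19%), RPL4, and in 1.64% of all 19563 protein_coding genes. RPS27L had no such match. Elements with a spacer between the half-sites were not searched for.

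The share of non-coding isoforms, meaning retained introns, nonsense-mediated decay candidates and processed transcripts, was compared with the coding isoforms within each gene. This ratio does not depend on library size. Of 78 members tested 19 had a higher ratio in nutlin samples, 16 a lower ratio and 43 were not called (limma, 5% FDR), which is 44.9% called against 42.7% of all 7587 genes tested. By direction the members differed from that background, with 24.4% higher against 35.7% and 20.5% lower against 7.06%. The median change was 0.00 on the log2 scale for the members and 0.30 for all genes tested.

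The ratio rose in RPS27L, whose non-coding share went from 1.23%, 1.79% and 2.34% (lowest, median and highest) in vehicle to 2.67%, 4.49% and 5.33% in nutlin samples (log2 change 1.33, SE 0.15, adjusted p = 2.99e-07, limma). Its non-coding isoforms had a mean of 15.3 counts in vehicle samples, and with a pseudocount of 5 its log2 change was 0.996, below the 1.04 of RPS9. RPS9, a small-subunit protein, went from 2.21%, 2.67% and 3.28% to 4.35%, 5.47% and 6.13% (log2 change 1.06, SE 0.08, adjusted p = 6.97e-10). RPS12, also of the small subunit, went from 1.92%, 2.32% and 2.66% to 4.12%, 4.29% and 4.58% (log2 change 0.97, SE 0.06, adjusted p = 1.84e-11). In these 3 genes the groups did not overlap. At the gene level RPS9 and RPS12 rose less, with LFCs of 0.51 (adjusted p = 1.30e-07) and 0.33 (adjusted p = 8.58e-04) in edgeR.

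The ratio also fell in the large-subunit genes RPL23A and RPL28. RPL23A went from a median of 0.991% to 0.533% (log2 change -0.81, SE 0.14, adjusted p = 7.73e-05, limma), with overlap. RPL28 went from 2.17% to 1.52% (log2 change -0.53, SE 0.12, adjusted p = 0.00102), with overlap. Both rose at the gene level in edgeR, with LFCs of 0.18 (RPL23A, adjusted p = 0.00889) and 0.86 (RPL28, adjusted p = 2.81e-14). Counts on pseudogenes named after RPL23A reached 90.1% of its own, so that its values are uncertain. Some smaller falls were without overlap, among them RPL30 (log2 change -0.49, adjusted p = 9.30e-06, limma) and RPL13A (-0.35, adjusted p = 1.23e-06, limma).

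**Figure D4:**
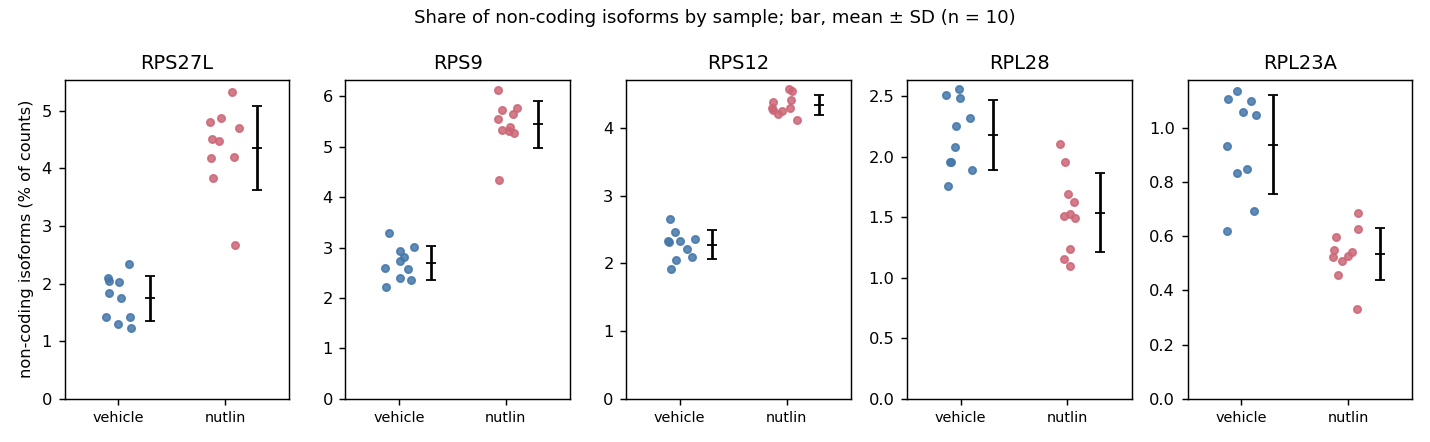
Counts on non-coding isoforms as a percentage of the gene's counts (vertical axes, each from 0) in each sample, for the 3 members with the largest rise (RPS27L, RPS9, RPS12) and for RPL28 and RPL23A among those with a fall of the non-coding to coding ratio. Points are samples, bars the mean ± SD of 10. RPS12 went from a median of 2.32% to 4.29%, while RPL23A went from 0.991% to 0.533%.

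Related gene lists moved differently. Among the ribosomal protein genes that the name rule misses, RACK1, a scaffold protein on the small subunit, rose from 1147, 1255 and 1483 CPM to 1841, 1989 and 2300 CPM without overlap (LFC 0.69, SE 0.05, adjusted p = 6.54e-14). RPL36AL, the paralog of RPL36A, fell with an LFC of -0.18 (adjusted p = 0.00815), and FAU, which encodes a small-subunit protein fused to a ubiquitin-like one, had an LFC of -0.11 (adjusted p = 0.156). Among 18 other mRNAs of translation known for a TOP start 12 rose and 2 fell, with a median LFC of 0.29. EEF2, the factor that moves the ribosome along the mRNA, rose from 3667, 3896 and 4303 CPM to 7652, 7841 and 8403 CPM (2.02-fold, LFC 1.02, SE 0.04, adjusted p = 6.57e-21).

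Mitochondrial ribosomal protein genes, which encode a separate ribosome inside mitochondria, mostly fell. Of 78 tested 68 fell, 6 rose and 4 were not called, with a median LFC of -0.44, and in 44 every nutlin sample was below every vehicle sample, a pattern found in 16.6% of all genes tested and in 54.5% of the other abundant mRNAs. Among 32 genes of ribosome biogenesis 22 fell, 7 rose and 3 were not called, with a median LFC of -0.28. DKC1, which modifies ribosomal RNA, fell with an LFC of -0.85 (adjusted p = 6.99e-17), and the nucleolar proteins NCL and NPM1 fell with LFCs of -0.74 (adjusted p = 1.87e-18) and -0.62 (adjusted p = 1.34e-12). POLR1A, the largest subunit of RNA polymerase I, rose with an LFC of 0.32 (adjusted p = 1.23e-10). The share that fell was 68.8% of biogenesis genes, 87.2% of mitochondrial genes and 0% of cytosolic subunit genes, beside 26.5% of all genes tested and 66.9% of the other mRNAs of at least 100 CPM. Neither background was matched to the level of the listed genes, and the differences between lists were not tested.

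**Figure D5:**
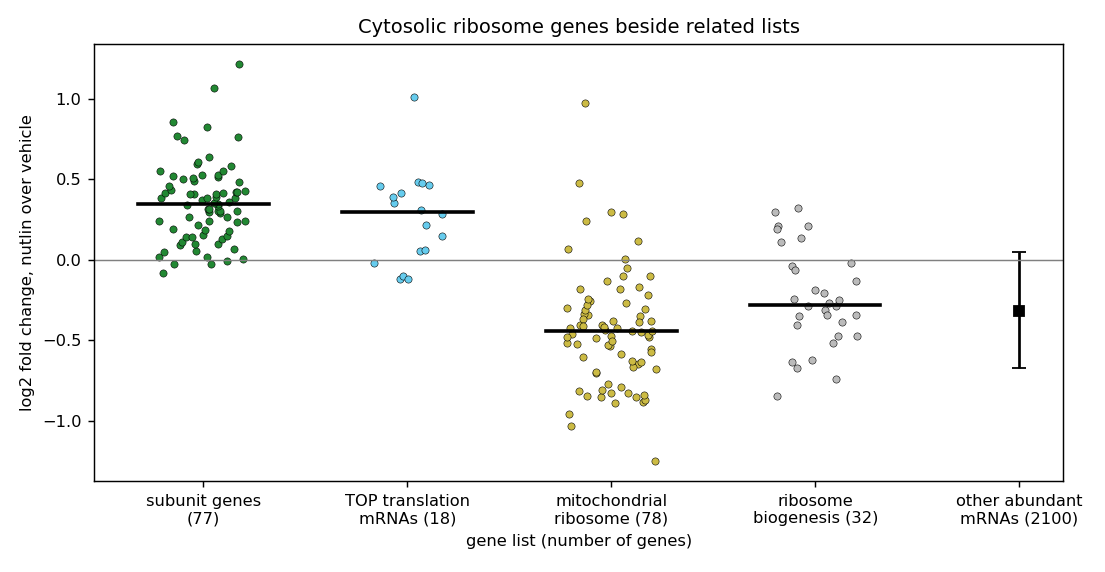
LFC of nutlin over vehicle (vertical axis, log2) for the 77 subunit genes, 18 other TOP mRNAs of translation, 78 mitochondrial ribosomal protein genes and 32 ribosome biogenesis genes, with 1 point per gene and a line at the median. The square and its bar give the median and the quartiles of the 2100 other mRNAs of at least 100 CPM. The medians are 0.35, 0.29, -0.44, -0.28 and -0.32.

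Ribosomal protein genes have many processed pseudogenes that share sequence with them. The files held 1597 pseudogenes named after 78 members, of which 1190 had a count. These took 0.152% ± 0.012 (SD, n = 10) of all counts in vehicle and 0.216% ± 0.018 (SD, n = 10) in nutlin samples, which is 2.19% and 2.09% of the member counts. For 4 members they reached over 10% of the gene's own counts, namely RPL23A with 90.1%, RPL21 with 74.8%, RPS28 with 21.5% and RPS2 with 12.7%, so that the values of these genes are uncertain. Adding the pseudogene counts to the members gave 62 called members, as many as without them.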

How the data were processed

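RNA-seq of 20 samples of NGP cells was analysed, 10 nutlin and 10 vehicle, grouped by their labels. Per the labels and the study's methods, poly(A) RNA was sequenced with a stranded kit and the authors quantified it with kallisto 0.42.4 on Ensembl release 85 transcripts of GRCh38. The estimated counts deposited by the authors are read pairs per transcript with no normalization. The TPM values deposited by the authors are scaled by effective length and library size and were used for levels between genes. Effective lengths were used in 1 alternative.

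Of 198968 transcripts 191106 (96.05%) were matched by Ensembl identifier to GENCODE release 44, while 7862 could not be placed. Gene sums were rounded. The quasi-likelihood F-test of edgeR 4.0.16 (R 4.3.3) was fitted on condition alone with TMM factors, over 27697 mRNA and lncRNA genes whose counts reached 1 in both conditions, and p-values were adjusted by Benjamini-Hochberg for calls at 5% FDR. CPM are TMM-normalized. Isoform ratios were log2((non-coding + 0.5)/(coding + 0.5)), tested with limma 3.58.1 over 7587 genes with a mean of at least 10 counts in each class. The edgeR and isoform tests were also run on simulated counts, and the outcome is not given here. Those counts were drawn independently for each gene and lack the common shift of short mRNAs between libraries.

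Alternatives were DESeq2 1.42.0 and its size factors, limma voom, filterByExpr, no filter, normalization without members, an effective length offset, a replicate block, added pseudogene counts and coding transcripts only. The removal of single samples and of members without their canonical transcript was added after seeing the data, as were the relations with other short mRNAs. The members and lists were chosen with earlier results of these data known.

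Described singly were RPS27L and RPS27, the other paralogs with their parent genes, RPL5, RPL11, RPL23, RPSA and the stalk genes, the 5 largest rises and falls at 5% FDR with a mean of at least 1 CPM (only 3 members fell; RPL3L, below 1 CPM, is described as a paralog), the 3 highest and lowest mean TPM, the 3 largest isoform changes in each direction (of the falls, RPL23A and RPL28 are given), and RACK1, RPL36AL, FAU and MDM2. EEF2, DKC1, NCL, NPM1, POLR1A, COL1A1, RPL4, RPL13A, RPL30 and the members in lists of exceptions were named after their values were seen. Results for some genes are not reported here. Depth limits RPL3L, RPL10L and RPL39L. Python 3.11.15, pandas 2.3.3, scipy 1.17.1 and matplotlib 3.10.9 were used.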

Additional observations from a re-analysis of the deposited data

Results flagged for a closer look

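A sample was taken as standing apart when its gap to the nearest other sample exceeded Dixon's 95% critical value for the range of its group of 10. This held in 26 of 66 groups tested, whereas chance flags about 1 in 20, and the groups are not independent because members move together.

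By this measure nutlin replicate 6 stood above its group for 18 of the described members, with 291 CPM for RPS27L, 147 for RPL22L1, 1497 for RPL7, 2677 for RPL10, 519 for RPL22, 1326 for RPL39, 1517 for RPL5, 2531 for RPL11, 2134 for RPL23 and 2438 for RPSA. The same sample had 4012 CPM for RPLP0, 2591 for RPLP1, 1336 for RPLP2, 4573 for RPS19, 2790 for RPL41, 3116 for RPS24, 1065 for RPS9 and 1805 for RPS12. Members held 14.03% of its counts against at most 11.8% in the other nutlin samples, and their median log2 deviation from the group mean was 0.40. RPL22L1, which fell between the groups, was also highest in this sample among the nutlin samples.

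Vehicle replicate 10 stood above its group in the same way for RPL3 (1774 CPM), RPL10 (1928 CPM), RPLP0 (3076 CPM) and RPL41 (2463 CPM). RPL10L was at 0.0812 CPM in vehicle replicate 11 and at 0.0601 CPM in nutlin replicate 3, each a single count, and at 0 in all other samples.

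Counts outside the genes compared were higher in nutlin samples. Pseudogenes named after members took 0.216% of all counts on average in nutlin samples, against 0.138% to 0.173% in vehicle samples. Transcripts not matched to the annotation took 4.21% on average, against 3.22% to 3.34%.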

How the results depend on the processing

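All alternatives kept the direction of each main result. The members called numbered 56 to 70 (62 as reported), of which 53 to 67 rose and 3 fell in each, and the median LFC of the members was 0.31 to 0.42. The low ends of 56 called and 53 rising came from leaving out the 8 members whose canonical transcript was not matched, with the fit unchanged. Among the other alternatives the fewest were 59 called and 56 rising, with the effective length offset. The difference in the share of counts was 3.76 percentage points, 3.4 with all counts as the denominator and 4.83 by summed TPM.

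Replicate numbers are shared by 8 nutlin and 8 vehicle samples, and the labels do not say whether same-numbered samples were treated together. The deviations of same-numbered samples correlated between -0.037 and 0.071, and those of differently numbered samples between -0.136 and 0.127. These correlations cannot settle the pairing, because a low correlation does not show that samples were handled apart. With the replicate block 69 members were called, against 65 in the same 16 samples without it. The RPS27L to RPS27 difference was 0.71 (p = 0.0078, exact permutation test over 8 pairs), and this p is the smallest that 8 pairs can give. With the block 24 members changed their isoform ratio, against 29 in the same samples without it and 35 as reported. The isoform count was 36 with a pseudocount of 5 and 34 with at least 50 counts in each class. The RPS27L to RPS27 difference was 0.76 with pseudogene counts added. Coding transcripts alone gave no value for RPS27 or for this ratio, and normalization, tool and filter do not enter the ratio.

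Among other described members 306 of 336 changes kept direction and call. RPSA, at -0.03 as reported, was above 0 with DESeq2 size factors (0.021), DESeq2 (0.021), filterByExpr (0.051), the replicate block (0.027), coding transcripts only (0.020) and the 16 samples (0.023), and lay between -0.051 and 0.029 without nutlin replicate 6 or vehicle replicate 10. RPL26, at 0.02, was at -0.074 with coding transcripts only, and RPL10L, with 1 count a group, was at 0.0042 with DESeq2 and between -0.086 and 0.050 without vehicle replicate 10 or nutlin replicate 6. RPL22 lost its call with the effective length offset (0.04). RPL7, RPL41 and RPL23 gained one in 19 fits. The causes were not tested.

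Transcripts that could not be matched, the split of reads among isoforms and pseudogenes, and the common shift of short mRNAs between libraries limit the values of single members.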
